A study of Mus musculus with 6 samples.

Results

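The 9 interferon-gamma response genes described here were followed in whole ovaries of mice that lack the receptor for follicle-stimulating hormone and of wild-type mice. They were the chemokine genes Cxcl9 and Cxcl10, the transcription factor gene Irf1, the guanylate-binding protein genes Gbp2 and Gbp3, and the immunity-related GTPase genes Iigp1, Ifi47, Igtp and Irgm1. The genes were chosen by name, with earlier results of these data known. A probe set counted for a gene only where the array annotation gave that 1 symbol. All 9 were found, of 18193 genes with such a probe set, and they had 12 probe sets. Where a gene had several, the one brightest on average over the 6 arrays stood for it, and all 9 passed the filter on dim signals. Cxcl9 alone had a WT mean (4.89) below that filter, a mean signal of 20.4 over the 6 arrays, so it was tested only because its FORKO signals are high. The WT mean of Cxcl10 (20.4) was barely above the filter, with WT replicates 2 and 3 (7.18 and 17.9) below it.

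There were 3 FORKO ovary samples, from female mice in which every variant of the receptor had been deleted, and 3 wild-type (WT) samples as controls. Both groups were 8 months old and came from crosses of heterozygotes on the 129T2 svEmsJ background, and RNA came from both ovaries pooled and was hybridised to 1 Affymetrix Mouse Genome 430 2.0 array. The deletion is present in every cell of the animal, so the arrays do not show which cell of the ovary a transcript came from. The titles and the genotype field name the FORKO samples, but their free-text description and treatment fields speak of wild-type mice. The labels call the samples biological replicates without saying how many mice gave each one, so the p-values cover only the spread among these 6 samples, which may be technical.

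Interferon-gamma is a cytokine released mainly by activated T cells and natural killer cells. It binds a receptor on nearly all cells and acts through JAK kinases and STAT proteins, which bind the GAS element in promoters. The factor IRF1 made in this first wave then acts with others on a second element, the ISRE. The products are chemokines that draw in more T cells, antigen presentation proteins, and families of GTPases that attack the vacuoles of intracellular pathogens. Some of these genes also answer type I interferons.

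Signals below are deposited MAS5 intensities scaled to 1 trimmed mean per array. A log2 change is the FORKO mean of log2(signal + 5.73) less the WT mean, and the added constant makes the changes of dim genes too small. The deleted gene Fshr read 1.20, 11.2 and 11.7 on FORKO replicates 1, 2 and 3, against 99.6, 59.4 and 118.8 on the WT arrays. FORKO replicate 1 stood apart across the whole table: its log2 signals correlated at 0.934 and 0.936 with the other FORKO arrays over the 22506 probe sets tested, against 0.976 between FORKO replicates 2 and 3 and 0.966 to 0.969 within WT. Of the 10 ovary markers listed, 8 were past the filter, with a median log2 change of -0.55 and, by limma, 0 that rose and 1 that fell, Fshr. Foxl2, a granulosa cell transcription factor, read 849, 872 and 819 on the FORKO arrays and 810, 626 and 631 on the WT arrays. The oocyte genes Gdf9 (48.1, 123 and 126 on the FORKO arrays, against 255, 199 and 256 on the WT arrays) and Zp3 (47.9, 66.0 and 71.6 on the FORKO arrays, against 112, 100.1 and 127 on the WT arrays) were lower on every FORKO array, lowest on replicate 1. Cyp17a1, an enzyme of androgen synthesis, read 2477, 307 and 556 on the FORKO arrays, against 1187, 173 and 604 on the WT arrays, so it too was highest on FORKO replicate 1. Amh, which growing follicles make, was below the filter, at 0.91 to 1.06 on the FORKO arrays and 0.83 to 1.16 on the WT arrays. In whole tissue, fewer cells of a type and less RNA per cell cannot be told apart.

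The start regions of 5 members are printed because they hold matches to the 2 elements named above. RefSeq promoters on GRCm38.p6 matched 8 of the 9 members, all but Iigp1. The 250 bases before each start were searched on both strands for TTCNNNGAA, called GAS here, and for GAAA, any 2 bases and GAAA again, called ISRE here. Each sequence runs 5′ to 3′ along the gene, and capitals mark the matches.

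Cxcl10 (chr5:92348890-92349139, minus strand): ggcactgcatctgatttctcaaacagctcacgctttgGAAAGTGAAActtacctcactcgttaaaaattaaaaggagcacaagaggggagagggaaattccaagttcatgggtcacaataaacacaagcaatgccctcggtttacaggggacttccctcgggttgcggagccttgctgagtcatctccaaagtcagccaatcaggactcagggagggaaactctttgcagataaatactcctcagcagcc
Irf1 (chr11:53769764-53770013, plus strand): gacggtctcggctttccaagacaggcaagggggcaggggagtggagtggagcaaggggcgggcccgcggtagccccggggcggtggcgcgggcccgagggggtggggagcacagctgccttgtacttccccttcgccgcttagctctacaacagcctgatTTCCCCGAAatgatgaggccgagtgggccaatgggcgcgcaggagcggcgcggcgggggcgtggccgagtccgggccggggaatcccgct
Gbp2 (chr3:142620413-142620662, plus strand): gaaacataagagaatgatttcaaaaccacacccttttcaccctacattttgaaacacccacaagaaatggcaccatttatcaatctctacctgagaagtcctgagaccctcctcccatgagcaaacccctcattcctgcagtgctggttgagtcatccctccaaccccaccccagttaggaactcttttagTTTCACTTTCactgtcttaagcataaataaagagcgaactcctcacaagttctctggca
Igtp (chr11:58199306-58199555, plus strand): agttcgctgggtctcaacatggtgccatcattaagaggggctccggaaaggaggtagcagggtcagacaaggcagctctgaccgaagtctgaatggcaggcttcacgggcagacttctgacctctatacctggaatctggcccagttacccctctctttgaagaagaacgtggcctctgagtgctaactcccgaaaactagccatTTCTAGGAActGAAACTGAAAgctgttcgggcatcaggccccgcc
Irgm1 (chr11:48871421-48871670, minus strand): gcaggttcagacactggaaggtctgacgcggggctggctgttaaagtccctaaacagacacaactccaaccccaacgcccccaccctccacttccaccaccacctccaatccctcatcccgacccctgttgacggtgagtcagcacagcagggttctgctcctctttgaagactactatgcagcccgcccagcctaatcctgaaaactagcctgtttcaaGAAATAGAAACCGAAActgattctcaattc

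The Irf1 window held 1 GAS match and no ISRE match, from 90 to 82 bases before the start. Igtp held both motifs, the GAS match ending 2 bases before the ISRE match begins. Cxcl10 and Gbp2 held 1 ISRE match each, and Irgm1 held 2 that overlap. A further pair of overlapping ISRE matches lay in the first of the 2 Gbp3 windows. In all, 6 of the 8 members held either motif, 5 held an ISRE match and 2 a GAS match. Of all 27025 genes with such a window, 11.1% held either motif, 3.46% an ISRE match and 8.13% a GAS match. Cxcl9, Ifi47, the second Irf1 start and the second Gbp3 start had no match to these letters in this window.

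All 9 genes read highest on FORKO replicate 1, and on that array each was at least 2-fold above the next highest of the 6 arrays (9 of 9, where 20.4% of all probe sets tested were highest on that array). By contrast FORKO replicate 2 lay within or close to the WT range for most of them, and FORKO replicate 3 lay between its group mates for all 9. None of the 9 had a limma adjusted p of 0.05 or less (0 of 9, where 1.06% of all probe sets tested passed as higher in FORKO). With the replicate number as a block 0 of 9 passed as well, where 1.92% of all probe sets tested did. At an unadjusted p under 0.05, limma counted 5 of the 9, where 7.66% of all probe sets tested were higher at that level. All 9 log2 changes were positive, with a median of 0.89, against a median of -0.01 over all probe sets tested, of which 48.8% were positive.

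Of the chemokines, Cxcl9, a ligand of the receptor CXCR3 on activated T cells, had the largest log2 change of the 9 genes. It read 269, 18.1 and 61.0 on FORKO replicates 1, 2 and 3, against 4.67, 5.62 and 4.39 on WT replicates 1, 2 and 3. All FORKO arrays lay above all WT arrays, and every WT value was below 5.73, the 25th percentile of all signals, so that a ratio against WT rests on very dim values. Its log2 change was 2.84 ± 0.69 (SE; limma adjusted p = 0.0848), with an exact two-sided permutation p of 0.1, the smallest that 3 against 3 arrays can give. It passed without FORKO replicate 2 (log2 change 3.67, limma adjusted p = 0.0171) and on the signals as deposited (2.80, 0.0318). Without FORKO replicate 1 the log2 change was 1.91, with an adjusted p of 0.0225 by limma, but its mean over the other 5 arrays (18.8) is below the filter redone on them (20.3), and with no filter the adjusted p was 0.103. A second Cxcl9 probe set, below the filter, read 33.1, 5.29 and 12.99 on the FORKO arrays and 6.64, 7.29 and 11.0 on the WT arrays, and here the groups overlapped.

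Cxcl10, a second CXCR3 ligand, read 92.9, 23.7 and 33.4 on the FORKO arrays, against 36.1, 7.18 and 17.9 on the WT arrays. WT replicate 1 exceeded FORKO replicates 2 and 3, so the groups overlapped, and the WT arrays themselves spanned a range of 5.03-fold. It gave a log2 change of 1.05 ± 0.51 (SE; limma adjusted p = 0.382, and 0.0631 with the replicate block). Against the WT array of the same number it was higher on all 3 FORKO arrays.

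Irf1, the factor that carries the response from the first wave of genes to the later one, read 2033, 729 and 836 on the FORKO arrays, against 682, 658 and 536 on the WT arrays. The groups did not overlap, although FORKO replicate 2 was only 1.16-fold above the WT mean. Its log2 change came to 0.78 ± 0.33 (SE; limma adjusted p = 0.313).

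**Figure D1:**
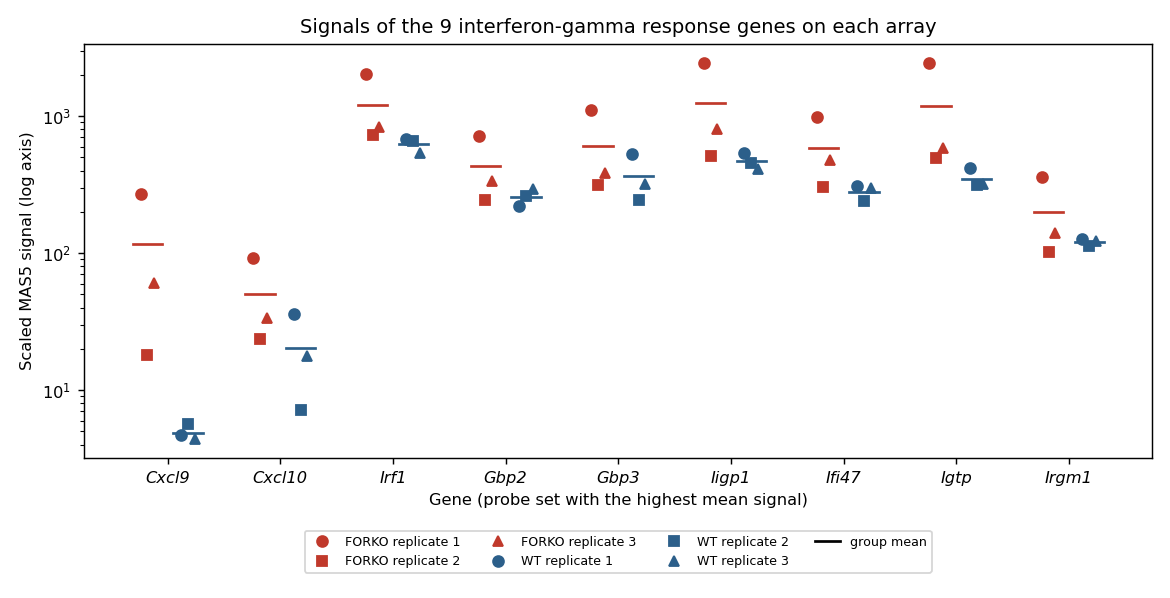
Scaled MAS5 signal (log axis) of the 9 genes on each of the 6 arrays, with FORKO arrays in red to the left and WT arrays in blue to the right of each gene, replicates by symbol and group means as lines. FORKO replicate 1 (circles) is the highest of the 6 arrays for all 9 genes, and all FORKO arrays lie above all WT arrays for Cxcl9, Irf1 and Igtp.

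Guanylate-binding proteins are large GTPases that coat and break pathogen vacuoles. Gbp2 read 718, 245 and 336 on the FORKO arrays, against 221, 260.3 and 292 on the WT arrays. The second FORKO array thus lay below 2 of the 3 WT arrays. Its other probe set, of a kind that may also bind related transcripts, read 617, 194 and 266 on the FORKO arrays, against 195, 222 and 308 on the WT arrays. Gbp3 read 1111, 317 and 385 on the FORKO arrays, against 525, 243 and 321 on the WT arrays. WT replicate 1 was here the second highest of the 6. The log2 changes were 0.60 ± 0.33 for Gbp2 and 0.57 ± 0.44 for Gbp3 (SE; limma adjusted p = 0.461 and 0.617).

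The immunity-related GTPases fall into effectors, which load onto vacuoles, and regulators, which hold the effectors inactive on the cell's own membranes. Of the effectors, Iigp1 read 2441, 515 and 809 on the FORKO arrays, against 539, 457 and 413 on the WT arrays. Ifi47 read 988, 304 and 478 on the FORKO arrays, against 307, 239 and 297 on the WT arrays. For both, FORKO replicate 2 fell just under WT replicate 1 while FORKO replicate 3 exceeded every WT array. The second Iigp1 probe set showed the same order of the FORKO arrays, at 644, 120.2 and 261 on the FORKO arrays, against 148, 98.8 and 133 on the WT arrays. Log2 changes were 1.10 ± 0.45 for Iigp1 and 0.89 ± 0.35 for Ifi47 (SE; limma adjusted p = 0.299 and 0.277).

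Of the regulators, Igtp read 2451, 491 and 590.4 on the FORKO arrays, against 417, 313 and 319 on the WT arrays. Its groups did not overlap, and its log2 change reached 1.35 ± 0.49 (SE; limma adjusted p = 0.243). Irgm1 read 360.3, 103 and 141 on the FORKO arrays, against 126, 113 and 123 on the WT arrays. FORKO replicate 2 was the lowest of all 6 arrays for Irgm1, and its log2 change stood at 0.51 ± 0.37 (SE; limma adjusted p = 0.597).

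Each FORKO array lay above the WT array of the same number for 7 of the 9 genes, all but Gbp2 and Irgm1, where 20.2% of all probe sets tested did. The groups did not overlap for 3 of the 9 genes, Cxcl9, Irf1 and Igtp, where 9.99% of all probe sets tested had every FORKO array above every WT array. The order of the FORKO arrays was shared: replicate 1, then 3, then 2 for 9 of 9 genes, where 16.0% of the probe sets tested had that order. A signal on FORKO replicate 1 at least 2-fold above the next highest array was seen for 9 of 9 genes, where 1.64% of the probe sets tested had one. This order and this 2-fold mark were not planned and describe the members' own values, so the shares beside them are no test. FORKO replicate 3 exceeded all WT arrays for 7 of the 9 genes and FORKO replicate 2 for 3, where 29.1% and 28.8% of the probe sets tested did so.

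Set against the mean of the WT arrays, the 8 genes other than Cxcl9 were 2.79-fold (Gbp2) to 7.01-fold (Igtp) as high on FORKO replicate 1. The same ratio was 0.85 (Irgm1) to 1.41 (Igtp) on FORKO replicate 2 and 1.06 (Gbp3) to 1.72 (Iigp1) on FORKO replicate 3. No ratio is given for Cxcl9, whose WT signals are too dim to divide by. The median SD of the members' log2 signals was 0.91 within FORKO and 0.19 within WT, where the medians over the probe sets tested were 0.24 within FORKO and 0.22 within WT. Each member varied more within FORKO than within WT, as did 54.6% of all probe sets tested.

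Without FORKO replicate 1, the median log2 change of the 9 genes was 0.44. Then 1 of 9 passed, Cxcl9, where 2.65% of all probe sets tested passed as higher in FORKO, and 0 of 9 with the filter redone on the 5 arrays. Igtp then had a log2 change of 0.63 (limma adjusted p = 0.0972), Cxcl10 0.54, Iigp1 0.46, Ifi47 0.44 and Irf1 0.32. Gbp2 stood at 0.16, Gbp3 at 0.02 and Irgm1 at 0.000608. For these last 3 genes the mean of FORKO replicates 2 and 3 was 1.13-fold (Gbp2), 0.97-fold (Gbp3) and 1.01-fold (Irgm1) that of WT.

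**Figure D2:**
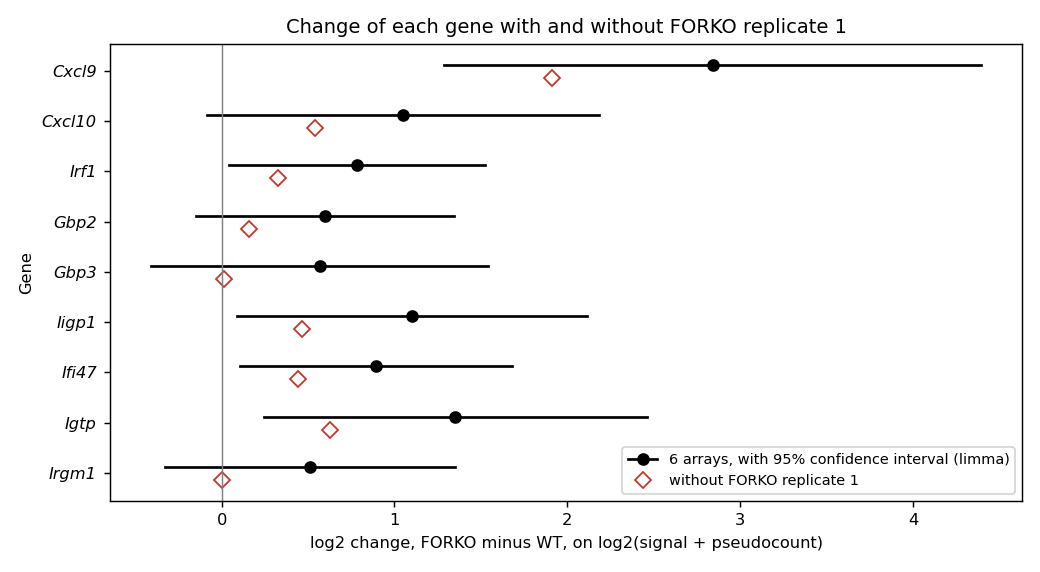
Log2 change of each gene, FORKO minus WT, over all 6 arrays (black circles, with the 95% confidence interval of limma) and without FORKO replicate 1 (open diamonds). Leaving that array out moves every gene towards 0, with Cxcl9 at 1.91 and Irgm1 at 0.000608.

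The pathway above these genes was examined next. Ifng, which encodes interferon-gamma itself, read 83.0, 10.9 and 21.3 on the FORKO arrays, against 18.5, 10.8 and 11.6 on the WT arrays. It too was highest on FORKO replicate 1, and replicate 2 lay within the WT range (log2 change 0.84 ± 0.53, SE; limma adjusted p = 0.521). The receptor gene Ifngr1 read 320.1, 295 and 174 on the FORKO arrays, against 199, 238 and 150.0 on the WT arrays, and Ifngr2 read 44.6, 80.3 and 53.1 on the FORKO arrays, against 47.0, 48.6 and 37.3 on the WT arrays. The kinase gene Jak1 read 268, 618 and 490 on the FORKO arrays, with its lowest value on replicate 1, against 350, 495 and 433 on the WT arrays. Jak2, the kinase bound to the second receptor chain, read 295, 177 and 253 on the FORKO arrays, against 201, 201 and 216 on the WT arrays. Limma adjusted p was 0.549 to 0.970 for these 4 genes. Socs1, a feedback inhibitor, was below the filter, at 1.06 to 4.26 on the FORKO arrays and 1.25 to 6.54 on the WT arrays.

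Of 16 signalling genes listed, 15 were on the array and 12 past the filter. By limma 0 rose (1.06% of all probe sets tested) and 0 fell. At an unadjusted p under 0.05 there were 2, Pias1 as higher (7.66% of all probe sets tested were higher at that level) and Ptpn2 as lower. The median log2 change of all 15 was 0.19. Ifng had a WT mean below the filter. After Ifng, the largest change among those past the filter was that of Stat2, a partner in the type I interferon signal. Stat2 read 61.6, 44.3 and 46.3 on the FORKO arrays and 24.4, 42.6 and 36.4 on the WT arrays (log2 change 0.50, limma adjusted p = 0.382). Against the WT mean, the median of these 12 genes was 0.50, -0.05 and 0.19 on FORKO replicates 1, 2 and 3, where the 9 members had medians of 1.80, 0.14 and 0.74.

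Of 14 other GTPases of the same families listed, 5 were on the array, and those past the filter followed the same arrays. Of 4 past the filter, 0 rose by limma (1.06% of all probe sets tested) and 2 had an unadjusted p under 0.05 (7.66% were higher at that level). All 4 were highest on FORKO replicate 1 (20.4%), with list medians of 2.13, 0.02 and 0.40 on FORKO replicates 1, 2 and 3. Gbp6 read 1155, 206 and 367 on the FORKO arrays, against 253, 133 and 188 on the WT arrays. Gbp8 read 230.3, 54.3 and 70.8 on the FORKO arrays, against 48.9, 36.1 and 44.0 on the WT arrays, so that its groups did not overlap. Their log2 changes were 1.24 and 1.09 (limma adjusted p = 0.302 and 0.282). Without FORKO replicate 1 the log2 changes were 0.56 for Gbp6 and 0.49 for Gbp8, but -0.0013 for Gbp7 and -0.08 for Irgm2. Irgc1, below the filter, read 8.74, 0.82 and 2.32 on the FORKO arrays, against 0.83, 2.50 and 12.1 on the WT arrays (log2 change -0.11).

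The chemokine genes and receptors linked to Cxcl9 and Cxcl10 had a median log2 change of 1.03 over all 6 on the array. Of the 4 past the filter 0 rose by limma (1.06% of all probe sets tested) and 3 had an unadjusted p under 0.05 (7.66% were higher at that level). But Ccl5 and Cxcr6 passed the filter only through FORKO, their WT means (15.5 and 17.6) being below it. Ccl5, a chemokine of T cells, read 212, 27.3 and 56.5 on the FORKO arrays, against 23.8, 12.7 and 10.0 on the WT arrays (log2 change 1.90, limma adjusted p = 0.158). With the replicate number as a block it passed (limma adjusted p = 0.0421, but 0.0636 with no filter), as it did without FORKO replicate 2 (0.0471, but 0.121 with no filter). Cxcl16, a chemokine that draws T cells through CXCR6, read 395, 153 and 118 on the FORKO arrays, against 93.8, 101 and 79.1 on the WT arrays (log2 change 1.04, limma adjusted p = 0.231).

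Antigen presentation genes, another known class of interferon-gamma targets, held 1 call among 15. Over all probe sets tested, 1.06% passed as higher in FORKO by limma. All 15 past the filter read highest on FORKO replicate 1 (20.4% of all probe sets tested), and the FORKO arrays lay above all WT arrays for 10 of them (9.99%). H2-D1, an MHC class I heavy chain, rose: it read 3231, 1871 and 1859 on the FORKO arrays, against 1019, 984 and 885 on the WT arrays (log2 change 1.22 ± 0.21, SE; limma adjusted p = 0.0251). Its probe set, like the second one of Gbp2, is of a kind that may also bind related transcripts. The other 14 did not pass, and the median was 0.81. The call of H2-D1 was lost under median scaling (limma adjusted p = 0.0564) and in limma without an intensity trend (0.0563). With the replicate block 5 rose, where 1.92% of all probe sets tested did, and 3 rose without FORKO replicate 1 (2.65%). Without FORKO replicate 2, 3 rose, where 0.951% of all probe sets tested did, and without FORKO replicate 3, 1 rose (0.378%). Without WT replicates 1, 2 and 3, 0 rose each time, where 0.324%, 0.169% and 0.271% of the probe sets tested did.

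Of the other known targets, 18 were on the array and 13 past the filter, with 5 below it. By limma 2 of the 13 rose, where 1.06% of all probe sets tested passed as higher in FORKO. Cd274 and Il18bp passed the filter only through FORKO, their WT means being below it. The median log2 change of all 18 was 0.43. Vcam1, an adhesion molecule for leukocytes, read 1364, 1198 and 1195 on the FORKO arrays, against 380.1, 195 and 290.0 on the WT arrays (log2 change 2.14 ± 0.23, SE; limma adjusted p = 0.00358). Its FORKO arrays lay close together, unlike those of the 9 members. Icam1, a second adhesion molecule, read 217, 121 and 147 on the FORKO arrays, against 63.9, 57.6 and 83.8 on the WT arrays (log2 change 1.15 ± 0.24, SE; limma adjusted p = 0.0497). The call of Icam1 was lost without FORKO replicate 3 and without each of the WT arrays, under quantile normalization (limma adjusted p = 0.0532), median scaling (0.0730), both other pseudocounts (0.0510 and 0.0509), no filter (0.0832) and without an intensity trend (0.0695), while Vcam1 kept its call in all of these. A count of 3 rose without FORKO replicate 1 (2.65% of all probe sets tested), without FORKO replicate 2 (0.951%) and with the replicate block (1.92%). Both genes are also known to answer other inflammatory signals.

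Genes best known from type I interferon gave other values on the same arrays. Of 14 past the filter, 0 rose (1.06% of all probe sets tested) and 0 fell by limma. An unadjusted p under 0.05 was seen for 2 (7.66% were higher at that level). Their median was 0.38, -0.20 and -0.04 on FORKO replicates 1, 2 and 3 and 0.18 in the full comparison. FORKO replicate 1 was the highest array for 5 of 14 (20.4% of all probe sets tested). Oas1a, which makes an activator of RNA breakdown, read 135, 104 and 140.0 on the FORKO arrays, against 78.1, 69.5 and 85.0 on the WT arrays (log2 change 0.66, limma adjusted p = 0.131). Bst2, the surface protein tetherin, read 366, 251 and 245 on the FORKO arrays, against 207, 190 and 191 on the WT arrays (log2 change 0.52, limma adjusted p = 0.253). Mx1, 1 of 2 genes below the filter, had the largest change of the list. It read 34.0, 17.5 and 22.7 on the FORKO arrays, against 13.4, 9.58 and 9.13 on the WT arrays (log2 change 0.86), so its groups did not overlap. The median log2 change of all 16 on the array was 0.19. The difference between this list and the 9 members was not tested.

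**Figure D3:**
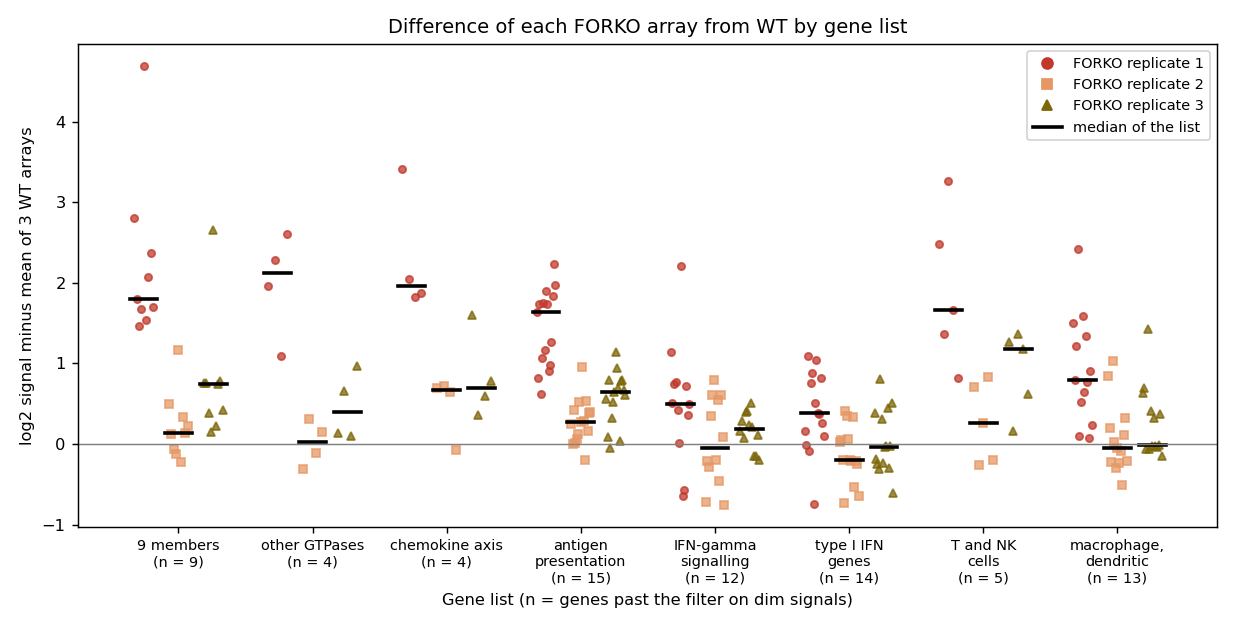
Log2 signal minus the mean of the 3 WT arrays for each gene past the filter, by list and by FORKO array (replicates 1, 2 and 3 by colour and symbol), with list medians as black lines. The members' medians are 1.80, 0.14 and 0.74 on FORKO replicates 1, 2 and 3, and those of type I interferon genes are 0.38, -0.20 and -0.04; of the T and natural killer cell markers drawn, 4 of 5 passed the filter only through FORKO.

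Markers of leukocytes were measured on the same arrays. By limma 0 of the T, natural killer, macrophage, dendritic, B and neutrophil markers rose over the 6 arrays, where 1.06% of all probe sets tested did. Of 18 T and natural killer cell markers on the array, 13 were below the filter. The summed signal of all 18 was 221 to 963 on the FORKO arrays, highest on replicate 1, and 166 to 209 on the WT arrays. On FORKO replicate 1 the largest part of that sum was 1 gene, Il18r1 (415). No marker was listed at 0. The T cell receptor component Cd3e read 1.20, 1.82 and 9.72 on the FORKO arrays, against 11.1, 3.02 and 2.15 on the WT arrays, all below the filter. Its log2 change of -0.17 was the lowest of the 18. Cd3d, another such component, was also below the filter. It read 24.4, 1.82 and 15.8 on the FORKO arrays, against 1.14, 3.75 and 6.0 on the WT arrays (log2 change 0.89). The log2 changes of Cd3g and Cd247, of the same receptor, were 0.42 and 0.38. Of the 5 markers past the filter, 0 rose by limma and 3 had an unadjusted p under 0.05. But 4 of the 5, Gzma, Cd3g, Nkg7 and Klrd1, passed it only through FORKO, so these counts say nothing of the list. The median log2 change of all 18 was 0.45. Il18r1, a receptor chain for interleukin 18, read 415, 46.5 and 107 on the FORKO arrays, against 38.3, 29.7 and 47.9 on the WT arrays (limma adjusted p = 0.245). Gzma, a granzyme of killer cells, read 118, 30.5 and 47.7 on the FORKO arrays, against 20.9, 12.7 and 16.8 on the WT arrays (limma adjusted p = 0.117). It passed with the replicate block (0.0417, but 0.0719 with no filter) and without FORKO replicate 2 (0.0498, but 0.133 with no filter).

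Macrophage and dendritic cell markers had a summed signal of 2584 to 5545 over 16 genes on the FORKO arrays, highest on replicate 1, and 2640 to 2995 on the WT arrays. Of 13 past the filter, 11 read highest on FORKO replicate 1 (20.4% of all probe sets tested). By limma 0 rose (1.06%) and 3 had an unadjusted p under 0.05 (7.66% were higher at that level). The median log2 change of all 16 was 0.36. Against the WT mean, the median of the 13 was 0.80, -0.05 and -0.02 on FORKO replicates 1, 2 and 3, and the summed signal on FORKO replicate 2 was below that of every WT array. Itgax, the integrin CD11c, read 90.7, 31.0 and 42.5 on the FORKO arrays, against 19.1, 10.1 and 8.95 on the WT arrays (limma adjusted p = 0.0690), with a WT mean below the filter. Cd14, a receptor part for bacterial lipopolysaccharide, read 194, 121 and 103 on the FORKO arrays, against 77.3, 66.7 and 51.7 on the WT arrays (limma adjusted p = 0.0989). With the replicate block both passed (0.0220 and 0.0298, and 0.0401 and 0.0377 with the block and no filter). Without FORKO replicate 2 Itgax passed (0.0485), but not with no filter (0.130).

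The other cell markers gave fewer shared features. Of 2 B cell genes past the filter, Ighm read 158, 64.5 and 117 on the FORKO arrays and 99.4, 50.5 and 135 on the WT arrays, while Jchain read 963, 276 and 410 on the FORKO arrays, against 565, 449 and 523 on the WT arrays. The 1 neutrophil gene past the filter, Camp, read 4.26, 78.4 and 44.7 on the FORKO arrays, against 0.83, 37.3 and 23.6 on the WT arrays. Of 5 endothelial genes, 0 rose by limma (1.06% of all probe sets tested) and 1 had an unadjusted p under 0.05 (7.66% were higher at that level). Vwf read 387, 177 and 191 on the FORKO arrays, against 134, 110 and 89.3 on the WT arrays (limma adjusted p = 0.118, and 0.0317 with the replicate block). Kdr, a VEGF receptor, read 247, 233 and 235 on the FORKO arrays, against 190, 219 and 166 on the WT arrays. The adhesion gene Cdh5 (18.8, 44.9 and 54.3 on the FORKO arrays, against 29.9, 32.4 and 43.3 on the WT arrays) and Emcn (12.4, 62.9 and 57.9 on the FORKO arrays, against 33.3, 40.5 and 72.4 on the WT arrays) were lowest on FORKO replicate 1, where the median of the 5 stood at -0.13 against the WT mean. No lymph node or fat gene passed the filter, and the 4 on the array summed to 23.1 to 40.9 on the FORKO arrays and 26.8 to 29.6 on the WT arrays. Within that sum the fat gene Adipoq read 0.98 to 2.85 on the FORKO arrays, against 12.5 to 13.6 on the WT arrays, and Cr2, a receptor on B cells and follicular dendritic cells, read 8.87 to 11.2 on the FORKO arrays, against 1.25 to 1.79 on the WT arrays. The part of these cell markers in the members' values was not tested.

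The genes with the profile closest to the members were sought over the whole table. Each gene's log2 signals were set against its own WT mean, and the likeness was the root mean square difference from the mean profile of the 9 members over the 6 arrays. That mean profile stood at 2.24, 0.23 and 0.77 on FORKO replicates 1, 2 and 3. The closest of all other named genes was Gbp8, another guanylate-binding protein gene, at a distance of 0.07 on the log2 scale. After it came Ptprc, the surface protein CD45 of all leukocytes (0.13), Krt19, a keratin of simple epithelia (0.14), Itgb2, the shared chain of leukocyte integrins (0.14), and Art3, an ADP-ribosyltransferase gene (0.14). The members' own distances ran from 0.11 for Iigp1 to 1.33 for Cxcl9.

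Ptprc read 1165, 285 and 432 on the FORKO arrays, against 309.7, 267 and 250.3 on the WT arrays. Krt19 read 440, 137 and 181 on the FORKO arrays, against 136, 94.4 and 108 on the WT arrays. Both thus put FORKO replicate 1 at more than 2-fold the next highest array. Art3 read 179, 50.5 and 87.7 on the FORKO arrays, against 51.2, 34.8 and 38.2 on the WT arrays. In the RefSeq table of GRCm38.p6, Art3 is the protein-coding gene next to Cxcl9, and its span holds Cxcl10 and Cxcl11 whole. Its second probe set was dim, at 0.53 to 5.38 on the FORKO arrays and 0.62 to 1.97 on the WT arrays. Cxcl11, the remaining CXCR3 ligand, was below the filter and read 57.2, 10.3 and 35.0 on the FORKO arrays, against 5.29, 11.0 and 2.15 on the WT arrays. Whether the probes of Art3 meet transcripts of the genes inside its span was not tested.

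**Figure D4:**
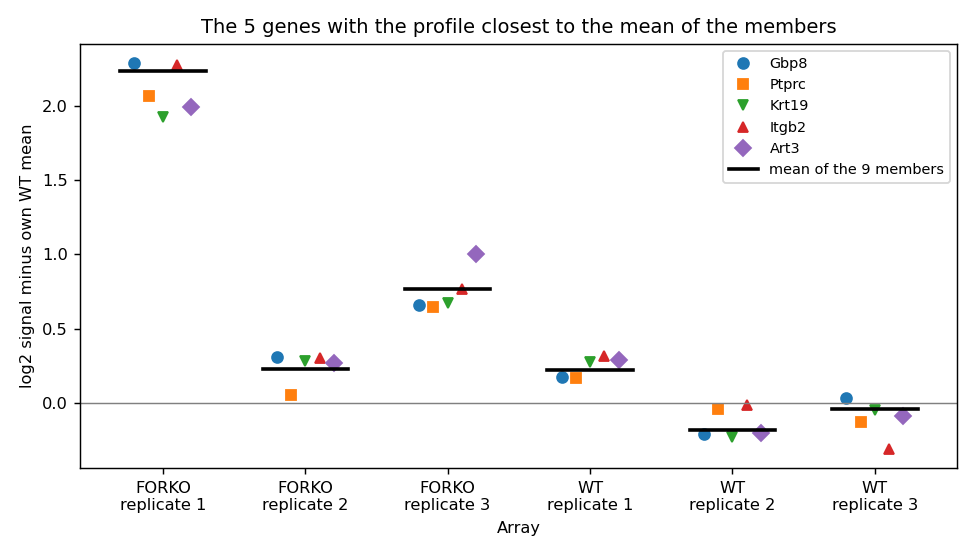
Log2 signal minus the gene's own WT mean on each of the 6 arrays for the 5 genes closest to the members (coloured symbols), with the mean of the 9 members as black lines. The 5 genes were picked for their nearness to this mean over these arrays, so that nearness is no finding. The members' mean stands at 2.24 on FORKO replicate 1, where Krt19 stands at 1.93 and Art3 at 1.99, and at 0.77 on FORKO replicate 3.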

How the data were processed

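RNA of 3 FORKO and 3 WT ovary samples was measured on 1 array each. Per the submitters' processing notes, the deposited intensity of a probe set is its MAS5 signal, which the values show to be linear. The version, scaling target and detection calls were not given in the sources used here. Array trimmed means were 80.6 to 98.4, so each array was scaled to 1 mean after trimming 2% at each end. Then log2(signal + 5.73) was taken, 5.73 being the pooled 25th percentile. Leaving out 64 control probe sets, the 22506 with a mean signal of at least 20.4, the median, entered limma 3.58.1 (R 4.3.3; trend, two-sided, Benjamini-Hochberg over all, threshold 0.05). The code was tested on simulated data. The annotation gave 1 symbol for 34958 probe sets, several for 932 and none for 9211; genes were named from the first only.

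Members, lists and tests were chosen with earlier results of these data known. All 9 members are named; of each other list, up to 4 genes that passed, or the 2 largest changes where none passed, plus the core pathway genes. Some further genes were named after their values were seen. They are Gdf9, Zp3, Cyp17a1, Amhr2, Star, Cdh5, Emcn, Adipoq, Cr2, Cd3e, Cd3d, Cd247, Mx1, Pias1, Ptpn2, Gbp7, Irgm2 and Irgc1. Those said to pass the filter only through FORKO were also named then. The patterns across the FORKO arrays, such as their order, were not planned and are description only. The 5 alternatives that combine the filter with an array left out or the block were added after seeing the data. The reported comparison is unpaired, as no label ties the replicate numbers of the 2 groups together. Same-numbered arrays deviated together (correlations 0.195, 0.134 and 0.358), so a block on the number was tried as an alternative. That block rests on these data alone, so calls made with it are no independent support. Blocked values are given where they change a call and for some other genes. Arrays give no counts, so their number limits the precision. Alternatives covered the normalization, pseudocount, filter, variance model, block, probe sets and each array left out. Figures were drawn with matplotlib 3.10.9.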

Additional observations from a re-analysis of the deposited data

How the results depend on the processing

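Under 17 alternatives all 9 members kept a positive change wherever they were tested (Cxcl10 fell below the filter at the 60th percentile). The number of members called was 0 in the comparison as reported and 0 to 1 without 1 array. It was 1 with signals as deposited, Cxcl9 each time (called in 3 of 17; limma adjusted p = 0.0171 to 0.254 over all). In 5 alternatives chosen after seeing the data, 0 members were called without FORKO replicate 1 with the filter redone (Cxcl9 is then not tested) or with no filter, 1 without FORKO replicate 2 in either way, and 0 with the replicate block and no filter. Probe sets called were then 860 and 456, 318 and 99, and 524, and the members' median was 0.38 to 1.28. The members' median stayed between 0.44 and 1.28 without 1 array and between 0.77 and 0.90 otherwise. Over all probe sets 372 passed, against 62 to 864 without 1 array, 221 with no filter on dim signals, which tests more probe sets, and 691 with the replicate block. With the replicate block 0 members passed, the lowest adjusted p being 0.0554 for Cxcl9 (limma), 0.0631 for Cxcl10 and 0.0820 for Igtp. The block raised the list counts as given above. It also raised the count of ovary markers called to 3, against 1 as reported: Fshr kept its call (limma adjusted p = 0.0133), Amhr2 passed as higher (0.0346) and Star as lower in FORKO (0.0418). Antigen presentation calls ranged from 0 to 5 and calls of other targets from 1 to 3 over the settings other than leaving out arrays, against 1 and 2 as reported. The cause of these shifts was not tested. No detection calls were used here, so signals near those of Cxcl9 in WT ovaries have no stated limit of detection.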
